A study of Mus musculus with 57 samples.

Results

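The broadest H3K4me3 domains of mouse gastrocnemius muscle were 500 of the 16940 autosomal H3K4me3 regions that had a peak in all 10 gastrocnemius libraries, and 31075 regions had a peak in at least 1 library. They were chosen by H3K4me3 width itself: overlapping peaks of the 10 libraries were merged on chromosomes 1 to 19, the widest peak of each library was taken in each merged region, and the regions were ranked by the median of those widths (End minus Start). The H3K4me3 widths in gastrocnemius are therefore given as a description, with no test. The tests below use H3K27ac and H3K27me3 libraries, which the ranking did not use. Gastrocnemius, a fast calf muscle of the hindlimb, and brain cortex came from PSAPP mice, a transgenic model of Alzheimer's disease, at 13 months of age. All mice of both groups carried this genotype and age in the labels, and were housed singly on a modified AIN-93 diet. No group without the transgenes was analysed here, so the domains describe muscle of mice labelled transgenic. No source used here names the promoters that drive the transgenes. Sex was not compared, since it is absent from the sample labels used here. The deposited names differ by tissue: those of gastrocnemius record uniquely mapped reads without duplicates, and those of cortex record settings of the peak caller, so any difference in filtering or calling cannot be told apart from tissue in the comparisons below. Chromatin immunoprecipitation followed by sequencing gave 57 libraries, with 10 gastrocnemius and 9 cortex libraries for each of H3K4me3, H3K27ac and H3K27me3. All libraries came from whole frozen tissue, in which fewer cells of a type and less mark per cell cannot be told apart.

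H3K4me3 is laid down on the nucleosomes around the start sites of transcribed genes, usually as a narrow peak. At a small set of genes the mark spreads over many kilobases into the gene, and in many tissues such broad domains are known to lie at genes that define the cell type. H3K27ac marks active promoters and enhancers, and H3K27me3 is the mark of Polycomb-repressed genes. In skeletal muscle the genes that define the cell encode the sarcomere, the proteins that release and take up calcium, and the enzymes of glycolysis, and muscle also holds capillary endothelium, fibroblasts, fat cells and nerve.

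Autosomal peaks held 9.03 to 14.8 M reads (M, mega) in the H3K4me3 libraries of gastrocnemius and from 9.32 to 18.6 M reads in those of cortex. The H3K27ac libraries held 15.6 to 27 M reads in gastrocnemius and 3.90 to 21 M reads in cortex, and the H3K27me3 libraries 2.99 to 18.2 and 3.90 to 6.35 M reads. Marker genes separated the tissues as labelled. All 10 skeletal muscle fibre markers had a start site in an H3K4me3 region called in every gastrocnemius library and 1 of them did in cortex, whereas 5 of 10 cortical neuron markers did in gastrocnemius and 10 in cortex. The libraries of 1 animal stood apart at the domain of Prnp, the prion protein gene (chr2:131901801-131914000, rank 379). This animal gave gastrocnemius replicate 6 and cortex replicate 5 of each mark, as read from the animal code in the deposited names. Its H3K4me3 level was 5.05 RPM/kb (peak reads per kb, scaled to the library's reads in autosomal peaks) in gastrocnemius, where the other libraries held 28.4 to 39.5, and 7.22 in cortex, where the others held 35.8 to 46.7. Its H3K27ac level was 3.83 against 21.9 to 39.5 in gastrocnemius and 3.49 against 17.9 to 29 in cortex. No H3K27me3 peak was called there in either tissue of this animal, while the other libraries held 26.6 to 49.6 RPM/kb in gastrocnemius and 28.7 to 44.1 in cortex. The other animals thus had high peak reads of all 3 marks over Prnp. RPM/kb is not corrected for the number of DNA copies, so more mark and more copies cannot be told apart there. Prnp was the single domain of the 500 at which any of the 9 animals with both tissues lay at or under 50% of every other animal in all 3 marks and both tissues. Prnp regulatory sequence is widely used to drive transgenes in mice. Whether this animal differs in genotype was not tested, and the counts of H3K27ac and H3K27me3 calls below are also given without its libraries.

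Several of the domains hold microRNA genes. Of the 919 autosomal hairpins listed in the RefSeq table used here (GRCm38.p6), 39 lay in 30 domains. Some microRNA genes that start in domains, such as Mir1a-1 and Mir133a-2, are not among these 39. The mature sequences below are shown for microRNAs that share a seed, are clustered in 1 domain or lie in a domain described later, with the seed (bases 2 to 8) in capitals. The pair miR-196a-5p and miR-196b-5p, from the Hoxc and Hoxa domains, shares a seed, as do miR-195a-5p with miR-497a-5p and miR-132-3p with miR-212-3p, whose hairpins lie in the same domain. The hairpins of miR-23a, miR-27a and miR-24 are clustered in the domain of rank 101, miR-126a lies in Egfl7, an endothelial gene, and miR-10a lies in the Hoxb domain.
miR-196a-5p: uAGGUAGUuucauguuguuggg
miR-196b-5p: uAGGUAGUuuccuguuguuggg
miR-126a-3p: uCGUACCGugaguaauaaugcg
miR-195a-5p: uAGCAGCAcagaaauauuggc
miR-497a-5p: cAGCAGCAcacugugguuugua
miR-23a-3p: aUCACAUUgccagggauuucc
miR-27a-3p: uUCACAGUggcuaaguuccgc
miR-24-3p: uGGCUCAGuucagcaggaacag
miR-10a-5p: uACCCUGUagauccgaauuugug
miR-132-3p: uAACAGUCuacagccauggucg
miR-212-3p: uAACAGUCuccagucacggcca

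Promoters of 4 genes of the domains are printed from RefSeq (GRCm38.p6), each from 250 bases before to 50 bases after the start site and on the gene's strand: Ttn (chr2:76982498-76982797, minus strand), Myl1 (chr1:66945007-66945306, minus strand), Kdr (chr5:75978406-75978705, minus strand) and Dbp (chr7:45704997-45705296, plus strand). They stand for a giant sarcomere gene, a fast myosin light chain, an endothelial receptor and a clock output gene. Capitals mark matches on either strand to 7 short motifs: the E-box CAGCTG, a MEF2-type motif (CTA and TAG separated by 4 bases of any kind), the TEAD-type CATTCC, the TATA-type TATAAA, the clock E-box CACGTG, the ETS-type CCGGAA and the Sp1-type GGGCGG.
Ttn: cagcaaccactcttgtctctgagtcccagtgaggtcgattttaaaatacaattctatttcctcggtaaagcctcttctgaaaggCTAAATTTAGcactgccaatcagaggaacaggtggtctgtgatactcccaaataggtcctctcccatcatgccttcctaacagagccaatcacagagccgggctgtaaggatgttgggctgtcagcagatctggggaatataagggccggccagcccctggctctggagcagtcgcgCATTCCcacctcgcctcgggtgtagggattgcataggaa
Myl1: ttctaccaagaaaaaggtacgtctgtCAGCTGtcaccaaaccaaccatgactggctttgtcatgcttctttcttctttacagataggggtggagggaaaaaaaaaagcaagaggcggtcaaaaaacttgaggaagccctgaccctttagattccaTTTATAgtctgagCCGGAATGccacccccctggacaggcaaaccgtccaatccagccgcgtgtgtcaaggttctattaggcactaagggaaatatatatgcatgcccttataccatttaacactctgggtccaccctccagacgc
Kdr: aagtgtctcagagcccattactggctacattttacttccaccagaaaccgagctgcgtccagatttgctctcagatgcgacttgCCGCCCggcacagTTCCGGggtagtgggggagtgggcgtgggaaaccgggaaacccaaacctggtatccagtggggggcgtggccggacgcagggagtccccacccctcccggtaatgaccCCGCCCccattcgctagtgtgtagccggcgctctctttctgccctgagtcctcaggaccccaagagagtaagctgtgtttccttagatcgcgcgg
Dbp: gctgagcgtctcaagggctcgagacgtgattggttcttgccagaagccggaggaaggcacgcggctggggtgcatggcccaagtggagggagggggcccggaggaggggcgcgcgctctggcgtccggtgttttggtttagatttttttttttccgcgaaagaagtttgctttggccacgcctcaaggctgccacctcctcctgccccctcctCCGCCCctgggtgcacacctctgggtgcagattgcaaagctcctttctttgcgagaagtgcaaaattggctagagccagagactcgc
Ttn held the MEF2-type motif from base 85 and CATTCC from base 262 of its window. Myl1 held CAGCTG from base 27, TATAAA on the opposite strand from base 156, and CCGGAA from base 169 that overlaps a CATTCC on the opposite strand from base 171. Kdr held GGGCGG on the opposite strand from bases 85 and 206 and CCGGAA on the opposite strand from base 98, and Dbp held GGGCGG on the opposite strand from base 214. Over the 944 promoters inside the domains, CAGCTG was found in 17.1% (16.3% of all 31396 promoters), the MEF2-type motif in 4.34% (3.73%), CATTCC in 14.8% (14.6%) and TATAAA in 9.22% (13.6%). CACGTG was found in 8.69% (7.14%), CCGGAA in 20.6% (15.1%) and GGGCGG in 60.2% (36.0%). Among the 14175 promoters in the other H3K4me3 regions CAGCTG was found in 15.7%, the MEF2-type motif in 3.13%, CATTCC in 11.9%, TATAAA in 6.88%, CACGTG in 9.71%, CCGGAA in 25.8% and GGGCGG in 62.7%. From TATAAA on, in this order, the direction thus depends on which promoters the domains are set against. A match describes letters in the window and not a bound site.

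The widest domains were a mixture of the Sfi1 and Hjurp loci, Hox clusters, a nuclear RNA locus and metabolic genes. Rank 1 covered Sfi1 and Eif4enif1 (chr11:3127201-3207800), where the widest peak ran from 69.6 to 79.2 kb over the 10 libraries with a median of 73.7 kb. Rank 2 covered Hjurp and Ugt1a1 (chr1:88211201-88292600), with 41.8 to 59.8 kb and a median of 58.8 kb. In both, H3K27me3 was also called in every library of both tissues, as described below. No correction for DNA copy number or mapping was made here, and their share in these widths was not tested. Rank 3 was the Hoxc8 to Hoxc12 block with the non-coding RNA Hotair (chr15:102934001-102993600), genes that set position along the trunk and hindlimb, with a lowest width of 29 kb, a median of 40.7 kb and a highest of 52.0 kb. Rank 4 was Hoxa3 to Hoxa10 (chr6:52200001-52242200), with 26.4, 34.4 and 41.8 kb. The widths of these Hox domains did not overlap those of cortex, where the widest peak reached 2.20 kb over Hoxc and 2.80 kb over Hoxa. Rank 5 was Malat1 and Neat1, the abundant nuclear non-coding RNAs (chr19:5784401-5861000), with 23.4, 32.5 and 69.4 kb. Replicate 6, at 69.4 kb, stood apart there, since the next library reached 40.8 kb. Nfic, a nuclear factor I gene, followed at rank 6 with a median of 31.6 kb, a region without an annotated start site (chr15:85643601-85692000) at rank 7 with 30.3 kb, and Txnip, an inhibitor of glucose uptake, at rank 8 with 28.6 kb. Rank 9 held Cirbp, Midn and Efna2 with a median of 28.2 kb and rank 10 held Egfl7 with 27.8 kb. The Txnip widths ranged from 13.4 to 42.6 kb between libraries, a much wider spread than the 25 to 29.6 kb of Egfl7.

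Below these the widths fell slowly. Rank 100 stood at 15.4 kb and rank 500 at 9.80 kb, against a median of 11.9 kb over the 500 domains and 3.20 kb over the other 16440 regions. At the threshold Podxl (rank 499) and Cdkn1b (rank 500) were inside with 9.80 kb, and Cend1 with Slc25a22 (rank 501) had the same width and was outside, since 12 domains of the 500 tied at it. Eya1 (rank 502) followed with 9.70 kb. The coefficient of variation of the width over the 10 libraries had a median of 23.3%, near the 25% of the other regions. Each library's own 500 broadest regions held 302 to 383 of the domains, and 124 domains were in that set of every library. The median widest peak over the domains ran from 10.2 to 15 kb between libraries.

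**Figure D1:**
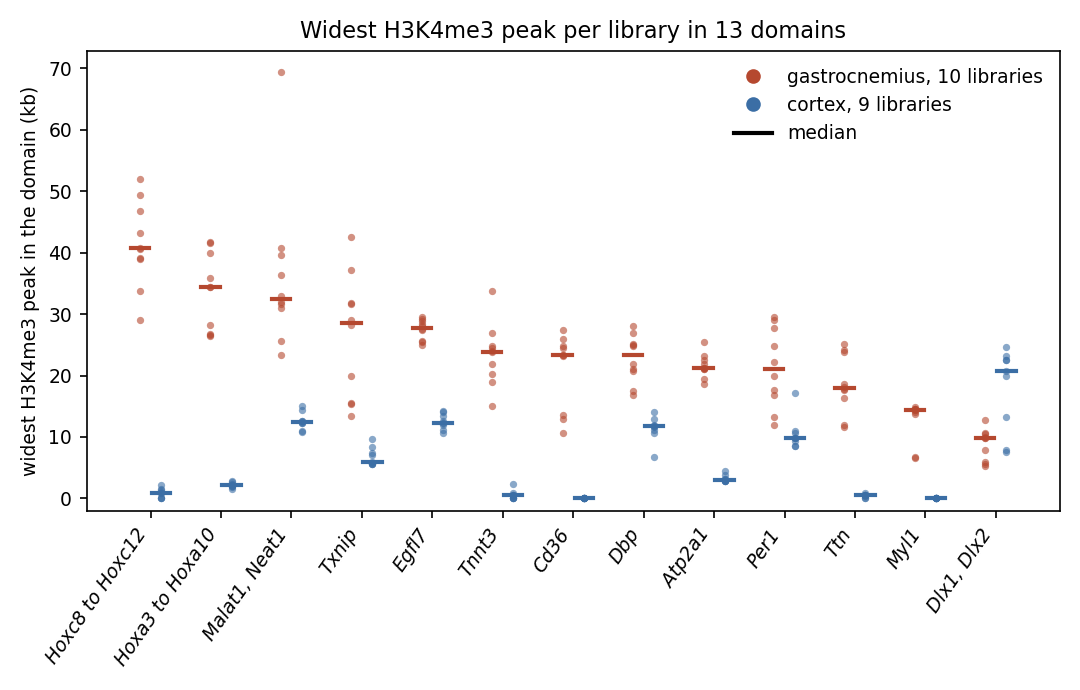
Widest H3K4me3 peak in kb (vertical axis) in 13 of the domains (horizontal axis), with a point per library, 10 of gastrocnemius and 9 of cortex, and bars at the medians. Hoxc, Hoxa, Tnnt3, Cd36, Ttn and Myl1 lie near 0 in cortex, with medians up to 2.20 kb, whereas Dlx1 with Dlx2 has the wider median in cortex.

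Start sites of curated RefSeq transcripts were found in 472 domains (94.4%, against 70.2% of the other regions), and 219 (43.8%, against 13.9%) held start sites of more than 1 gene, which a longer region has more room for. In all 916 genes started inside the domains. Where 1 gene started there, the domain mostly reached farther downstream of the first start site than upstream. In those 253 domains it reached a median of 3.72 kb upstream and 14.3 kb downstream of the first start site, and 235 of them (92.9%) reached farther downstream. In 72 of the 253 the longest transcript was no longer than the domain, so that part of the downstream reach can lie past the gene. The 9243 other regions of this kind reached 2.10 kb upstream and 3.43 kb downstream, and 82.0% reached farther downstream. Further start sites of the gene always lie downstream of the first, and a longer region can hold more of them, which adds to the downstream side. In Ttn, which encodes titin, the domain ran 4.25 kb upstream and 20.9 kb downstream, and in Epas1, a hypoxia-responsive factor of endothelium, 2.46 and 53.7 kb. Trpm8, a cold-sensing channel gene, was an exception with 12.9 kb upstream and 4.07 kb downstream. The 28 domains without a start site lay mostly inside genes, among them Pde4dip (rank 16, 24.3 kb), Tns1 (ranks 68 and 331), Tef (rank 162), Mbnl1 (rank 163), Zbtb16 (rank 309) and Neb (rank 461). Neb encodes nebulin, the ruler of the thin filament. These genes were picked after their values were seen. GC content had a median of 50.7% in the domains and 48.0% in the other regions. The observed over expected CpG ratio had a median of 0.306 and 0.359, and CpG per kb 19.3 and 20.6. CpG was thus somewhat sparser over the domains as a whole. These values cover the whole region, and the domains are longer, so the part of length in this was not tested.

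**Figure D2:**
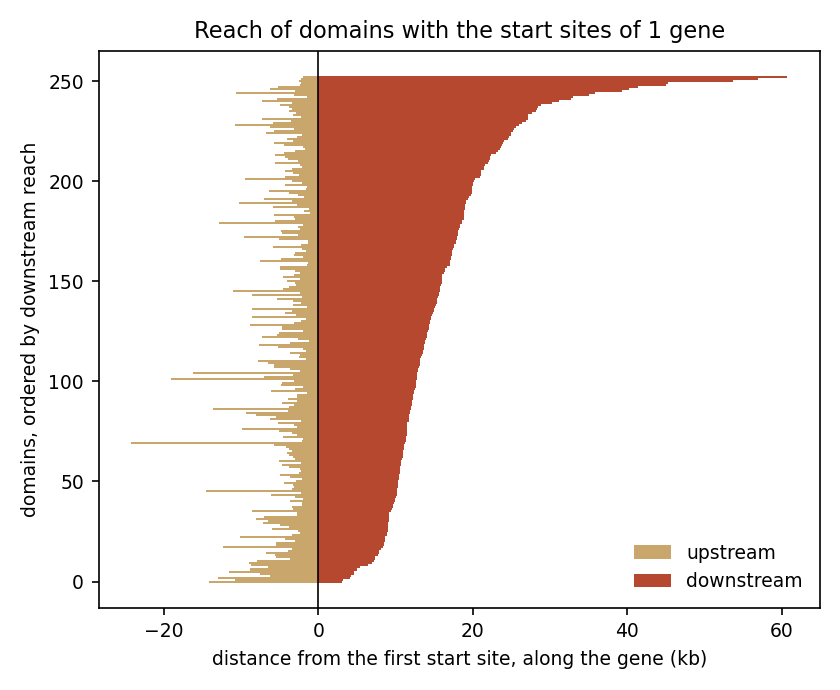
Reach in kb upstream (left of 0) and downstream (right of 0) of the first start site, along the direction of the gene, for the 253 domains that hold start sites of 1 gene, ordered by downstream reach. Downstream bars are longer than upstream bars in 235 of the 253 domains.

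Muscle genes were common among the domains. Of all 14632 autosomal genes with a start site in a region called in every library, 916 (6.26%) started in one of the 500 domains. Of the sarcomere genes it was 11 of 22 (50%), of calcium handling genes 5 of 10 (50%), of energy metabolism genes 5 of 15 (33.3%) and of neuromuscular junction genes 2 of 8 (25%). The 11 sarcomere genes were Tnnt3 (fast troponin T, rank 18), Ttn (rank 56), Tpm1 (tropomyosin, rank 107), Myl1 (fast myosin light chain, rank 121), Mylpf (rank 170), Ldb3 (a Z-disc protein, rank 174), Myot (rank 213), Myoz1 (rank 244), Mybpc1 (rank 431), Mybpc2 (rank 448) and Acta1 (skeletal actin, rank 471). Tnnt3 had 15, 23.9 and 33.8 kb as lowest, median and highest width in gastrocnemius, and at most 2.40 kb in cortex. Ttn had 11.6, 18 and 25.2 kb, and at most 0.80 kb in cortex. Neither overlapped between the tissues. The calcium handling genes were Atp2a1 (the fast calcium pump, rank 28, median 21.2 kb), Pvalb (parvalbumin, a calcium buffer of fast fibres, rank 130, 14.1 kb), Trdn (triadin, rank 298, 11.3 kb), Cacnb1 (a calcium channel subunit, rank 312, 11.2 kb) and Stac3 (rank 363, 10.7 kb). Eno3 (muscle enolase, rank 15, 25.1 kb), Aldoa (rank 148, 13.7 kb), Pygm (glycogen phosphorylase, rank 214, 12.4 kb), Pfkm (phosphofructokinase, rank 272, 11.6 kb) and Mb (myoglobin, rank 353, 10.8 kb) were the energy genes. Agrn and Ache, the agrin and acetylcholinesterase genes of the neuromuscular junction, stood at ranks 292 and 342. Tnnt3, Atp2a1, Eno3, Aldoa, Mylpf, Myoz1, Pygm, Cacnb1, Stac3, Agrn and Ache share their domain with start sites of other genes, and the width cannot be assigned to 1 of them.

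**Figure D3:**
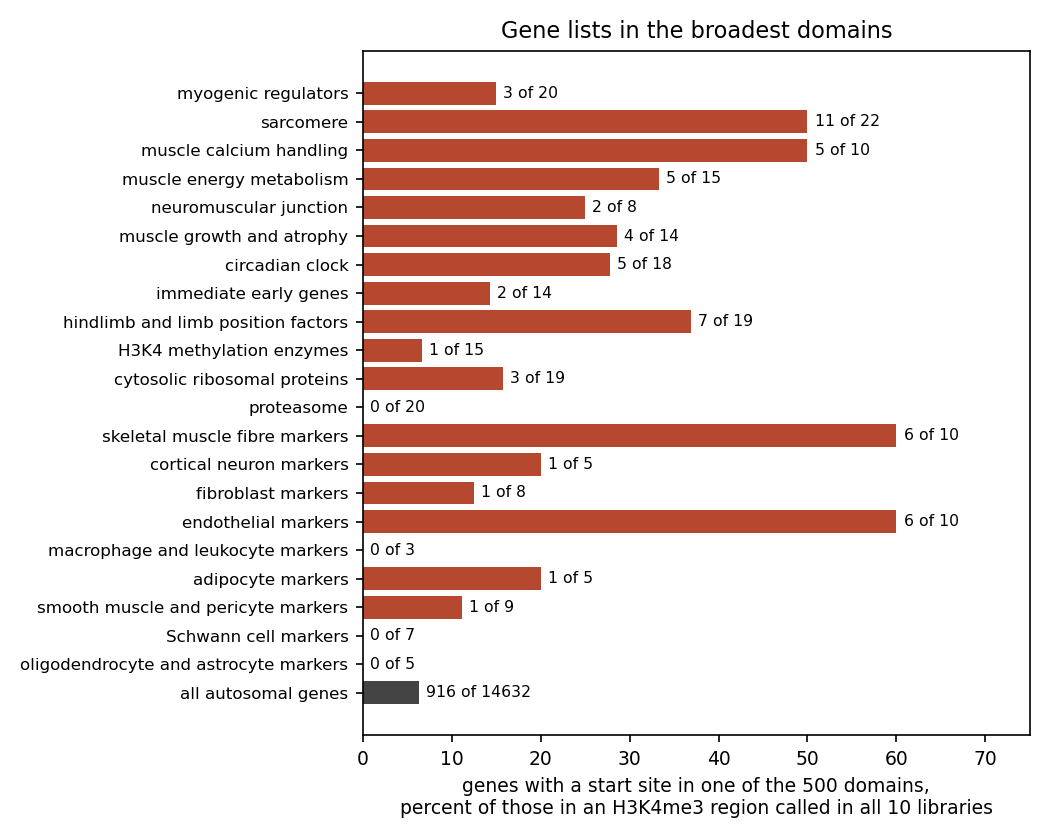
Percent of the genes of each list (vertical axis) whose start site lies in one of the 500 domains, among those with a start site in a region called in all 10 gastrocnemius libraries (horizontal axis), with the counts beside each bar. Muscle fibre and endothelial markers reach 60.0% and all autosomal genes 6.26%.

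Lists of regulators were represented to differing extents. Of 20 myogenic regulators, all of which started in a region called in every library, 3 (15%) were in the domains, among them Mef2d (rank 66) and Lbx1, a limb muscle precursor factor (rank 222). Of 19 limb position factors 7 (36.8%) were included, in 3 domains, with Hoxa9 and Hoxa10 in rank 4, Hoxc8 to Hoxc11 in rank 3 and Shox2 in rank 341. Of 14 genes of muscle growth and atrophy 4 (28.6%) were included, namely Klf15 (rank 158), Irs1 (rank 199), Irs2 (rank 260) and Foxo1 (rank 405), which respond to glucocorticoids or carry insulin signalling. Among 15 H3K4 methylation enzymes Setd1b (rank 98) was the one in the domains. Ribosomal protein genes had 3 of 19 (Rpl18, Rps2 and Rpl19, each in a domain with start sites of other genes), immediate early genes 2 of 14 (Nr4a1, rank 136, and Junb, rank 409) and proteasome genes 0 of 20.

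The domains also held genes of capillary endothelium. Of 10 endothelial markers 6 were in the domains, as were 6 of 10 muscle fibre markers (Atp2a1, Tnnt3, Ttn, Des, Mylpf and Acta1). The endothelial 6 were Egfl7 (rank 10), Cdh5 (VE-cadherin, rank 67, median 17.3 kb), Pecam1 (rank 92, 15.7 kb), Sox18 (rank 128, 14.2 kb), Erg (rank 184, 12.8 kb) and Kdr (the VEGF receptor, rank 293, 11.4 kb). Other cell types were represented by a single gene or by none. Of the fibroblast markers 1 of 8 was in the domains (Pdgfra, rank 406), of the adipocyte markers 1 of 5 (Cd36, the fatty acid transporter that fibres express too, rank 22), of the smooth muscle and pericyte markers 1 of 9 (Pdgfrb, rank 153) and of the cortical neuron markers 1 of 5. The macrophage list (3 marked genes), the Schwann cell list (7) and the oligodendrocyte and astrocyte list (5) had 0. The part of cell composition in these counts was not tested.

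Clock genes were also present, 5 of 18: Dbp (rank 24), Per1 (rank 29), Nr1d1 (rank 63), Cry2 (rank 125) and Bhlhe40 (rank 166). These 5 are output or repressor genes of the circadian clock, and each overlapped one of the 500 broadest domains of cortex. Dbp had 16.8, 23.3 and 28 kb in gastrocnemius and 6.80, 11.8 and 14.0 kb in cortex. Per1 had 12.0, 21.1 and 29.6 kb, and 8.60, 9.80 and 17.2 kb in cortex. The Dbp widths did not overlap between tissues and the Per1 widths did.

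Most of the domains carried H3K4me3 in cortex too, but over a shorter stretch. A cortex peak was called in all 9 libraries in 465 domains (93%, against 80.2% of the other regions) and in none in 18 (3.6%, against 9.78%). The widest cortex peak had a median of 5.80 kb over the domains, and it was under 50% of the gastrocnemius width in 296. In 276 domains every gastrocnemius library was wider than every cortex library, beside 20.8% of the 16940 regions, and in 0 was every cortex library wider. As the rule chose on gastrocnemius width, these counts are a description. By the same rule in cortex, 144 of the 500 domains (28.8%) overlapped one of the 500 broadest cortex domains, and 147 of those cortex domains overlapped them. The overlap counted 45 of the first 100 ranks, and 30, 23, 22 and 24 of the following sets of 100 ranks. The 6 highest ranked domains without a cortex peak in any library were Cd36 (10.6, 23.4 and 27.4 kb in gastrocnemius), Mylk4 (a muscle myosin kinase gene, median 17 kb), Aqp1 (a water channel of capillaries, 15.5 kb), Myl1 (6.60, 14.4 and 14.8 kb), Ppp1r3a (a glycogen-targeting phosphatase subunit, 12.6 kb) and Myot (myotilin, 12.4 kb). The other 12 included Trdn, Lmod2, Myom1, Srl, Mybpc1 and Mypn, which were picked after their values were seen and encode muscle proteins. In 16 domains cortex was at least as wide. Among them Dlx1 with Dlx2, factors of inhibitory interneurons, had 5.2, 9.80 and 12.8 kb in gastrocnemius and 7.60, 20.8 and 24.6 kb in cortex. The ranges of the tissues overlapped. Setd1b and Irs2 had about the same width in both tissues, with medians of 15.5 and 16.6 kb for Setd1b and 11.8 and 11.4 kb for Irs2.

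**Figure D4:**
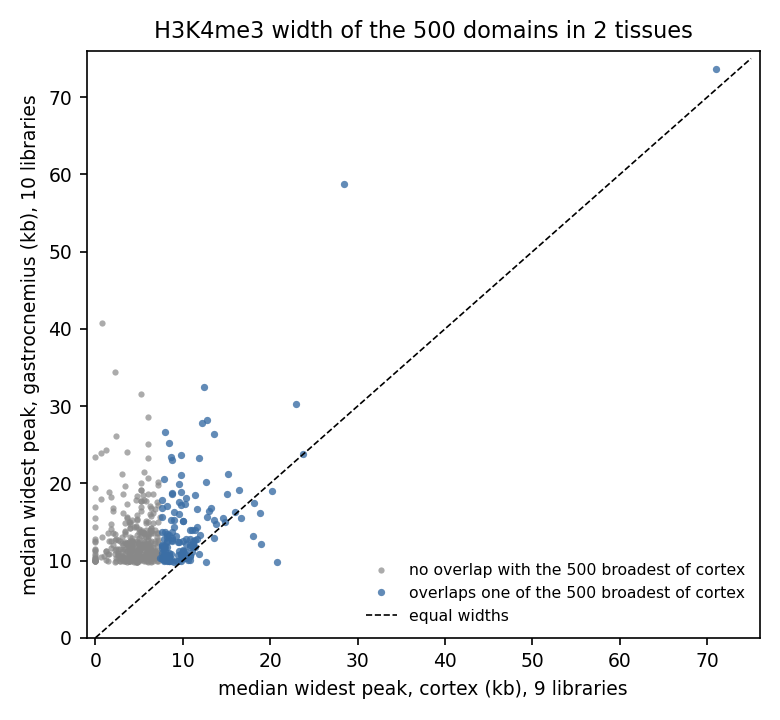
Median widest H3K4me3 peak in kb of each of the 500 domains in cortex (9 libraries, horizontal axis) and gastrocnemius (10 libraries, vertical axis), with the 144 that overlap one of the 500 broadest cortex domains in blue and equal widths as a dashed line. A column of points at or near 0 in cortex includes Cd36 at 23.4 kb and Hoxc8 to Hoxc12 at 40.7 kb.

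Acetylation covered the domains almost completely in gastrocnemius. An H3K27ac peak was called in all 10 gastrocnemius libraries in 499 of the 500 domains (99.8%, against 90.5% of the other regions), and peaks covered a median of 100% of the length (94.1% in the other regions). The median level was 5.04 RPM/kb in the domains, 4.49 in ranks 501 to 1000 and 3.14 over all other regions. It was 5.65 over the first 100 ranks and 4.56 over the last 100. In cortex 463 domains (92.6%, against 84.1% of the other regions) had an H3K27ac peak in all 9 libraries, the median coverage was 89.7% (77.4% in the other regions) and the level 3.88 RPM/kb (3.24 in the other regions). These are levels of peak reads, and a longer region is more likely to hold a peak.

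Whether acetylation at the domains differed between tissues was tested at sites merged over the 19 H3K27ac libraries and called in every one of them (edgeR's quasi-likelihood test, Benjamini-Hochberg adjustment over all 12829 sites, adjusted p under 0.1). Such a site existed for 476 domains, with 432 distinct sites, since neighbouring domains can share one. H3K27ac was higher in gastrocnemius in 325 of the 476 (68.3%), where 39.8% of all sites were called higher, and lower in 102 (21.4%), where 41.0% of all sites were. The remaining 49 did not pass the threshold. At a difference of at least 2-fold, 110 domains were higher (background 12.0%) and 4 lower (background 14.0%). Normalized reads of every gastrocnemius library exceeded those of every cortex library in 258 domains (22.0% of all sites) and fell below in 44 (21.9% of all sites). The log2 difference had a median of 0.42 over the domains and -0.01 over all sites. Without the animal that stood apart at Prnp the counts were 325 higher and 100 lower. The sites are wide, with a median of 80.3 kb for those of the domains and 18.6 kb over all sites, so part of a site's reads can lie outside the domain. With reads taken from the H3K4me3 regions alone, 463 domains were tested, 307 were higher (35.5% of 13428 regions) and 55 lower (33.8%), with a median log2 difference of 0.35, and 31 domains were called in opposite directions, 24 of them lower over the site and higher within the domain. Domains outside the cortex set differed more than those shared with it, as a description: 253 higher and 60 lower of 333, with a median of 0.53, against 72 higher and 42 lower of 143, with 0.16.

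**Figure D5:**
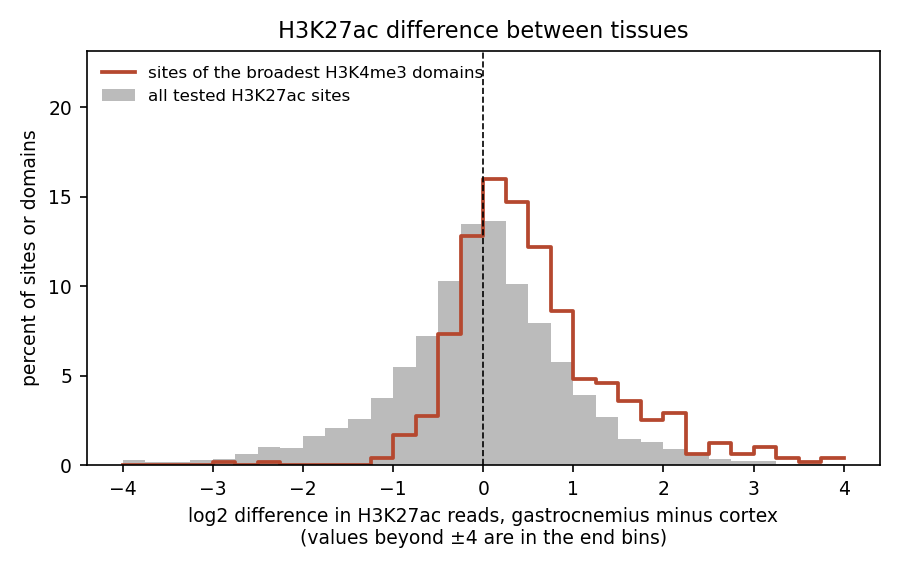
Distribution of the log2 difference in H3K27ac reads, gastrocnemius minus cortex (horizontal axis, 0.25 per bin), as percent of all 12829 tested sites (grey) and of the 476 domains with a tested site (line). The line lies to the right of the grey bars, with medians of 0.42 and -0.01.

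The requirement of a call in every library left 24 domains without a tested H3K27ac site. They included the Hoxc, Hoxa and Hoxb domains, Cd36, Ttn, Myl1, Myot, Trdn, Mybpc1, Lbx1, Ppp1r3a and the Neb domain. In the Hoxc8 to Hoxc12 domain the median level was 5.43 RPM/kb in gastrocnemius and 0 in cortex, and in the Hoxa3 to Hoxa10 domain 5.42 and 0.086. Where no peak was called the level is unknown, so these contrasts were not ranked against the tested ones.

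The 8 largest rises with non-overlapping libraries were led by 3425401B19Rik and Aqp1. The site of 3425401B19Rik (rank 478) held 228, 307 and 434 normalized RPM as lowest, median and highest in gastrocnemius and 3.93, 6.26 and 11.5 in cortex, a log2 difference of 5.66 ± 0.16 (SE, n = 10 and 9, adjusted p = 1.55e-17). Aqp1 held 213, 271 and 308, against 5.09, 13.6 and 33.9 in cortex (log2 4.04 ± 0.27). In both every gastrocnemius library was far above cortex. Within the domain the difference was 3.85 for 3425401B19Rik, and Aqp1 had no such value. Tcf15 (rank 445), a bHLH factor of capillary endothelium and somites, rose by 3.51 on the log2 scale (3.10 within the domain), and the domain of the muscle microRNA genes Mir1a-1 and Mir133a-2 (rank 339) by 3.41. Art1 and Art5 (rank 177), which encode ADP-ribosyltransferases, had 3.26, Cd93, an endothelial receptor gene (rank 395), 3.22 (2.10 within the domain), and Myo10 (rank 179) 3.21 (2.84 within the domain).

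The falls were smaller, and some belonged to the neighbourhood of the domain. Dlx1 with Dlx2 had -2.95 ± 0.36 (-2.73 within the domain), with ranges that overlapped between tissues. Lmo4, a LIM factor of cortical neurons, had -1.16 over the site and -0.13 within the domain, and Zeb2, a factor of interneurons and oligodendrocytes, -0.98 and 0.01. Nuak1 had -1.01 and -0.42, Arhgef25 with Dtx3 and Slc26a10 -0.95 and -0.33, Bag5 with Coa8 -0.82 and -0.47, and Pde2a -0.79 and -0.17, over the site and within the domain. A domain without a start site (chr11:97431001-97446800) had -0.80 over a site of 260 kb and 0.26 within the domain. All of these falls were smaller within the domain than over the site or, for Zeb2 and the domain without a start site, above 0.

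The counts by role below stand beside 39.8% of all sites called higher and 41.0% lower, and each rests on few domains. Acetylation of the sarcomere domains was higher in 5 of the 7 tested and lower in 2. Tnnt3 held 1060, 1221 and 1480 normalized RPM in gastrocnemius and 319, 345 and 408 in cortex (log2 1.87 ± 0.06), with no overlap. Ldb3 had a log2 difference of 1.53, Tpm1 1.29, Acta1 0.50 and Myoz1 0.46. Mybpc2, a fast myosin-binding protein, was lower over its site with -0.77 but higher within the domain with 1.51, and Mylpf had -0.09, a call lost with the animal as a block (-0.08), and 0.22 within the domain. Of the calcium handling domains Atp2a1 (0.96) and Pvalb (0.60) were higher, and Cacnb1 (-0.43) and Stac3 (-0.42, 0.18 within the domain) lower. Of the energy domains Pfkm (0.93), Mb (0.89), Eno3 (0.33) and Aldoa (0.16) were higher and Pygm was -0.36 over its site and 1.11 within the domain. Agrn (-0.74, 0.05 within the domain) and Ache (-0.41) were lower. Of the endothelial domains 5 of 6 were higher: Kdr with 139, 179 and 205 normalized RPM in gastrocnemius and 24.6, 31.7 and 43.3 in cortex (2.49 ± 0.10), Cdh5 (2.10), Pecam1 (1.88), Erg (1.88) and Egfl7 (0.19), while Sox18 did not pass the test with 0.08 (adjusted p = 0.136). Klf15 (1.05), Foxo1 (0.72) and Irs1 (0.72, -0.25 within the domain) were higher, and Irs2 did not pass the test with -0.0043. Pdgfra (1.25), Mef2d (0.52), Setd1b (0.65), Nr4a1 (0.39) and Pdgfrb (0.14) were higher, and Pdgfrb no longer passed with the animal as a block (0.10). Of the clock domains Bhlhe40 (0.63) was higher and Cry2 (-0.63) lower, and Per1 (0.04), Nr1d1 (0.0001) and Dbp (-0.06) did not pass the test. Rps2 (0.23) was higher, Rpl19 was called as the shared domain of Cacnb1, and Rpl18 lies in the Dbp domain. Junb had 0.05 and did not pass, and Shox2 was -0.36 over its site and 0.74 within the domain. Des, the desmin gene (rank 83), had 0.69 and was higher. Beside those given above, the value moved by over 1.5 times within the domain for Tnnt3 (2.95), Pvalb (2.35), Mb (2.04), Atp2a1 (1.62), Myoz1 (1.20), Egfl7 (0.89) and Rps2 (0.86), which were larger there, and for Kdr (1.62) and Tpm1 (0.49), which were smaller. Within the domain Setd1b (0.01), Pdgfrb (0.02) and Cry2 (-0.11) did not pass the test, while Sox18 (0.44) and Per1 (0.10) were higher and Irs2 (-0.50) was lower.

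H3K27me3 was called over the domains about as often as over other regions in gastrocnemius, and more often in cortex. In gastrocnemius a peak was called in all 10 libraries in 64 domains (12.8%, against 13.4% of the other regions) and in none in 322 (64.4%, against 63.2%). In cortex it was called in all 9 libraries in 124 (24.8%, against 13.3%) and in none in 282 (56.4%, against 67.6%). A longer region has more room for a peak. Of the 64, 47 carried it in every cortex library as well and 6 in no cortex library. The 64 had a lower H3K27ac level, with a median of 4.02 RPM/kb against 5.15 in the 322 without it. In 7 domains H3K27me3 peaks covered 100% of the length in gastrocnemius: Trpm8 (rank 84), Gata2 (an endothelial and blood factor, rank 122), Irx5 with Crnde (rank 142), Hoxb3 to Hoxb8 (rank 182), a region without a start site (chr17:13540201-13553200, rank 185), Osr2 (rank 492) and Dlx1 with Dlx2 (rank 495). Gata2, Irx5, the Hoxb genes, Osr2, Dlx1 and Dlx2 encode developmental transcription factors. H3K27ac peaks covered a median of 94.3% of the Gata2 domain, 90% of the region without a start site, 89.9% of Hoxb3 to Hoxb8, 55.5% of Osr2, 51.8% of Trpm8, 42.3% of Irx5 and 14.2% of Dlx1 with Dlx2, so the overlap of the marks in bulk tissue ran from near complete to small. The level in gastrocnemius and cortex was 10.9 and 13.7 RPM/kb for Trpm8, 5.40 and 8.96 for Gata2, 6.36 and 7.48 for Irx5 and 5.31 and 8.84 for Hoxb3 to Hoxb8. The Trpm8 domain shared its merged H3K27me3 site of 145.8 kb with the Hjurp domain (rank 2). Peaks of all 3 marks in all libraries of both tissues were found in 40 domains (8.0%, against 3.13% of the other regions).

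In 30 domains H3K27me3 was called in every cortex library and in no gastrocnemius library (6.0%, against 1.68% of the other regions). They included Tnnt3, Mylk4, Tpm1, Art1 with Art5, Mybpc1, Flnc (filamin C) and the Neb domain, of genes that muscle fibres use, as well as 3425401B19Rik, and Hspg2, Epas1, Cavin1, Sparc and Lama5, genes of vessels and matrix. These names were picked after their values were seen. Peaks covered a median of 78.8% of the Tnnt3 domain in cortex at 3.42 RPM/kb, and 84.3% of the 3425401B19Rik domain at 3.54 RPM/kb.

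The H3K27me3 difference could be tested in 75 domains, at 72 distinct sites of the 4683 called in all 19 libraries, with the same test. It was lower in gastrocnemius in 43 (57.3%), where 31.9% of all sites were, and higher in 15, where 34.8% were, and 17 did not pass. At least 2-fold, 15 were lower (background 6.49%) and 8 higher (background 12.0%). Every gastrocnemius library lay below every cortex library in 23 (10.5% of all sites) and above in 8 (12.8%). The median log2 difference was -0.39, and 0.02 over all sites. Without the animal that stood apart at Prnp 41 were lower and 15 higher. Within the domains alone 47 were tested, with 25 lower (32.0% of 1305 regions) and 8 higher (31.6%), and a median of -0.24. The test needs a site called in every library of both tissues, and 2 of the 30 domains above were tested through a site that reaches beyond them. In 18 of the 75 domains the site covered under 50% of the domain.

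The 15 domains at least 2-fold lower and the 8 at least 2-fold higher are all given here, a limit set after the values were seen. The site of Ebf3 (rank 284), an early B-cell factor family gene, held 176, 244 and 378 normalized RPM in gastrocnemius and 1372, 1446 and 1629 in cortex (log2 -2.51 ± 0.11, n = 10 and 9, edgeR). The shared site of the Hoxa domains held 650, 831 and 924 and 2189, 2594 and 2876 (-1.66 ± 0.06), and that of the Hoxc domains 1235, 1660 and 1956 and 3183, 3768 and 3874 (-1.17 ± 0.08). The tissues did not overlap in any of the 3. Within the domain Ebf3 had -2.12 and Hoxc8 to Hoxc12 -1.47. Each of these 2 Hox sites served a pair of domains. Htra3, a protease gene, had -2.20 over its site and -0.46 within the domain. The domain without a start site inside Tns1 (rank 68, -2.09), Slfn5 (-1.52), 3425401B19Rik (-1.42), Lbx1 (-1.28), Ebf1 (-1.25), the Mir1a-1 and Mir133a-2 domain (-1.12), Dll4 (-1.11), Tbx2 (-1.10) and Nr2f2 (-1.04) also fell. Within the domain the difference was -0.87 for Slfn5, -1.12 for Lbx1, -1.07 for Ebf1, -0.64 for Dll4, -0.84 for Tbx2 and -1.66 for Nr2f2, all past the threshold, and the others had no such value. Among list genes with smaller differences Pdgfra (-0.69, -0.26 within the domain) and Shox2 (-0.41, -0.40 within the domain) were lower. Kdr was lower over its site (-0.65) and did not pass within the domain (-0.44, adjusted p = 0.149, edgeR). Stac3 was lower over its site (-0.35, no longer past the threshold with the animal as a block, -0.32) and did not pass within the domain (-0.13, adjusted p = 0.478, edgeR). Over their sites Irs1 (-0.28) and Sox18 (0.19) did not pass the test, but Sox18 was higher within the domain (0.33, adjusted p = 0.0107, edgeR). Podxl, a podocalyxin gene of vessels, led the rises with 180, 210 and 330 normalized RPM in gastrocnemius and 20.4, 51.6 and 75.8 in cortex (2.05 ± 0.19). It was followed by Hrc with Trpm4 (1.99), Ltbp4 (1.89), Esam (1.86), Ptprb (1.82), Mcf2l (1.61), Josd2 (1.59) and the domain of miR-195a and miR-497 (1.10). Of these 8, Ltbp4 had a value within the domain (1.67). Pdgfrb had 0.49 (0.61 within the domain) and was higher. Of the 6 endothelial marker domains 2 were tested for H3K27me3, and over their sites 0 were higher and 1 lower. Within the domain Sox18 was higher and Kdr did not pass, so the tally depends on the feature.

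A few domains had a level of H3K27me3 beyond the rest. In 11 domains it exceeded 5 RPM/kb in gastrocnemius, a limit set after the values were seen, among them Sfi1, Hjurp, Trpm8, Gata2, Irx5, Hoxb3 to Hoxb8, Dlx1 with Dlx2, Prnp and 2 regions without a start site. In Sfi1 it was 46.1 RPM/kb in gastrocnemius and 69.2 in cortex, and in the region at chr9:3014601-3038600 (rank 19) 136 and 117. That region also held the highest H3K4me3 level of the 11, 134 RPM/kb in gastrocnemius and 82.6 in cortex, and 18.6 and 14.3 RPM/kb of H3K27ac. Peak reads of all 3 marks were therefore high in both tissues there, as they were over Prnp. In Hjurp it was 11.2 and 14.8 RPM/kb, and the animal that stood apart at Prnp had the narrowest H3K4me3 peak there, 41.8 kb where the next library had 58.4 kb. The cause of these levels was not tested. RPM/kb is not corrected for DNA copy number or mapping, so these and the amount of mark cannot be told apart. Of the 11, Gata2, Irx5, Hoxb3 to Hoxb8 and Dlx1 with Dlx2 are developmental regulators, whose levels lay between 5.31 and 6.75 RPM/kb.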

How the data were processed

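ChIP-seq of H3K4me3, H3K27ac and H3K27me3 was analysed in 57 libraries, 10 of gastrocnemius and 9 of cortex per mark. The authors aligned reads with BWA to mm10, filtered them with SAMtools and called peaks in each library with epic2 (200 bp windows, FDR filter). No source names the version of epic2. Deposited names follow a different scheme in each tissue. The deposited files list each peak's position, its read counts and a score; the counts, as deposited, are raw counts of ChIP reads in the peak, and the deposited score was used to rank peaks in 1 alternative. Reads outside peaks were not used here, so the level of a library without a peak is unknown and a difference needs a call in every library.

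Overlapping peaks were merged per mark (Python 3.11.15). RPM/kb is a library's peak reads shared by overlap with a region, per kb, scaled to the library's reads in autosomal peaks. Start sites are of curated RefSeq transcripts (GRCm38.p6, the same assembly as mm10). Counts summed per merged site were tested for tissue with edgeR 4.0.16 (quasi-likelihood, TMM, R 4.3.3) at sites called in all 19 libraries, with Benjamini-Hochberg adjustment over all sites and a threshold of 0.1. A domain took the site sharing most bases with it, and SE is the log2 difference divided by the square root of F. DESeq2 1.42.0, other normalizations, filters, features and libraries left out were alternatives, and the code was tested on simulated data. Each library of a group carries its own animal code in the deposited names. Title numbers pair only some mice, while the animal code pairs the tissues of 9: deviations of same-animal libraries from the tissue means correlated between -0.083 and 0.084 for H3K27ac.

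Named genes were those of the 10 first domains, the threshold, the gene lists, the 8 largest rises and 8 largest falls of H3K27ac, the 5 largest H3K27me3 shares (7 tied) and the 6 first domains without cortex H3K4me3; others are named as picked afterwards. Some genes these rules name are not reported here. The domains, lists and tests were chosen with earlier results of these data known. Counting precision is set by 2.99 to 27 M reads per library.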

Additional observations from a re-analysis of the deposited data

Results flagged for a closer look

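Over 87 groups of values, 18 values lay farther from the others than the gap test at 95% allows, several of them from the same libraries, and chance gives about 1 in 20 groups. Prnp was added to the groups after 1 animal was seen to stand apart there, so the count of 18 cannot be set against that rate. Of the 18 values, 6 come from the libraries of this animal at Prnp. Its levels were 5.05 RPM/kb of H3K4me3 (next 28.4), 3.83 of H3K27ac (next 21.9) and 0 of H3K27me3 (next 26.6) in gastrocnemius, and 7.22 (next 35.8), 3.49 (next 17.9) and 0 (next 28.7) in cortex. The gastrocnemius library of this animal (replicate 6) also had the narrowest H3K4me3 peak at Hjurp, 41.8 kb (next 58.4 kb), the widest at Malat1 and Neat1, 69.4 kb (next 40.8 kb), the most H3K27ac reads, 27 M reads (next 21 M reads), and an H3K27ac peak in 499 of the domains where the others had 500. The cause was not tested.

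H3K27ac cortex replicate 9 had 3.90 M reads (next 14.3 M reads) and a peak in 466 of the domains (next 476). H3K27me3 gastrocnemius replicate 5 had 18.2 M reads (next 7.54 M reads). H3K27ac peaks of gastrocnemius replicate 9 covered a median of 98.6% of a domain, where the other libraries had 100%. The widest H3K4me3 peak at Podxl was 23.6 kb in gastrocnemius replicate 3 (next 14.2 kb). In H3K27ac of cortex, replicate 8 was highest at the Mir1a-1 and Mir133a-2 domain with 46.7 normalized RPM (next 40.4) and at Myo10 with 25.9 (next 18.7), and replicate 6 was highest at Lmo4 with 192 (next 167).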

How the results depend on the processing

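With the H3K4me3 regions as features, an alternative chosen after seeing the data, 55 domains had lower H3K27ac in place of 102, and 8 had higher and 25 lower H3K27me3, with 47 tested. With sites called in at least 3 libraries of a tissue and uncalled libraries set to 0, 40 had higher (23.5% of all sites) and 128 lower H3K27me3 (32.6%) of 225 tested. A site that enters through calls in 1 tissue is set against an imposed 0 there, which fixes its direction, so these counts support nothing. Leaving out 1 replicate gave 323 to 326 higher and 100 to 106 lower for H3K27ac, 13 to 18 higher and 41 to 45 lower for H3K27me3, and 465 to 474 of the 500 domains. With the replicate block by title number the counts were 326 and 98 for H3K27ac and 15 and 42 for H3K27me3, and with the block by animal 325 and 101, and 17 and 42; pairs deviated together in neither (-0.161 to 0.061 by number). Under the animal block Pdgfrb (log2 0.10) no longer passed for H3K27ac, and Mylpf passed under neither block; for H3K27me3 Stac3 (-0.32) was lost under the animal block. DESeq2 gave 327 and 100, and 14 and 43. The direction turned with regions as features for Zeb2 (0.0103), Mylpf (0.22), Irs1 (-0.25), Pygm (1.11), Agrn (0.0507), Shox2 (0.74), Stac3 (0.18), Mybpc2 (1.51) and the domain at chr11:97431001-97446800 (0.26), and for Shox2 also with uncalled libraries at 0 (10.5, a size set by the imposed 0 and no measured difference). Over all alternatives these counts stayed within 1.5 times in 119 cases and did not in 5. Ranking by the mean width shared 441 domains with the 500, by the sum of widths 325 and without libraries that carry an S number in the deposited names 446. Widths rest on 9.03 to 14.8 M reads and on the caller's 200 bp windows, and a wide site blurs which domain a read count belongs to.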
